A study of Mus musculus with 5 samples.

Results

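Neuronal calcium sensors are small calcium-binding proteins that neurons use to turn a rise in calcium into a change in signalling, and 6 of their genes were followed here by name: Hpcal1, Hpca, Hpcal4, Ncald, Vsnl1 and Ncs1. All 6 were among the 14715 genes measured in 1954 single cells sorted from the spiral ganglion, whose neurons link the hair cells of the mouse cochlea with the brainstem. The neurons came from mice of both sexes aged 30 to 33 days and were enriched by sorting for tdTomato. Control cells came from 2 samples of the genotype bhlhb5-Cre/+; Ai14/+, and CKO cells from 3 samples that carried Runx1F/F, the floxed Runx1 gene, in addition. Every group thus carried the Cre allele and the tdTomato reporter, and removal of Runx1, a transcription factor, was limited to cells in which bhlhb5-Cre had been active. The comparison asks what the loss of Runx1 does to the diversity of these neurons.

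The proteins bind calcium through EF-hand motifs and carry a myristoyl lipid on the glycine that follows the start methionine. In hippocalcin and its nearest relatives calcium exposes this lipid and the protein moves to membranes, whereas neuronal calcium sensor 1 stays largely at membranes. Spiral ganglion neurons are of 2 kinds. Type I neurons contact inner hair cells and are divided into Ia, Ib and Ic, and the rarer type II neurons contact outer hair cells.

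The first 24 coding bases of each gene are shown because they hold the start codon and the glycine codon, in capitals, on which this lipid anchor depends. They were read from the GENCODE M21 transcripts of mouse genome build GRCm38.
Hpcal1: ATGGGCaagcagaacagcaagctg
Hpca: ATGGGCaagcagaacagcaagctg
Ncald: ATGGGGaaacagaacagcaagctg
Hpcal4: ATGGGGaaaaacaacagcaagctg
Vsnl1: ATGGGGaaacagaatagcaaactg
Ncs1: ATGGGGaaatccaacagcaagttg
All 6 have a glycine codon in second place, and Hpcal1 and Hpca are identical over these bases. Over the whole coding sequence Hpcal1 and Hpca shared 86.1% of aligned bases, Hpcal4 and Vsnl1 82.1%, and Hpcal1 and Ncald 80.2%. Ncs1 stood farthest off, with 62.6% to 64.1% against the other 5. Counting was from 3′ ends, which lie mostly outside the coding sequence, and how reads shared by 2 of these genes were counted is not given in the sources used here.

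Levels are given as UMIs (unique molecular identifiers, 1 for each captured molecule) per 10000 of the cell's total, as means over cells. A 3′ UMI counts a molecule once whatever its length, so levels of different genes are compared on this scale without a correction for length. Control held 1070 neurons with a median of 38085 UMIs per cell, and CKO 884 with a median of 44120.5. The files give the genotype of a cell but no sample. Each genotype was therefore 1 pool, no test between genotypes or classes was made, and the exact 95% intervals reflect counting error alone. In column order the barcodes form 5 stretches, each running alphabetically, stretches 2 and 5 of control cells and 1, 3 and 4 of CKO cells. No source says which sample a stretch is, so stretch values show spread and are not replicates. The 1954 cells had 1953 distinct barcodes, and 1 barcode occurred in both genotypes. Runx1 itself stood at 1.23 in control and 1.68 in CKO. Which exons are floxed is not given in the sources used here, and a 3′ count outside them checks nothing.

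Neurons were put into classes with 3 genes that are not sensors of this group, in fixed order: type II at a Dupd1 level of 1 or more, then Ic at a Lypd1 level of 3 or more, then Ia at a Calb2 level of 150 or more, and Ib for the rest. Control had 242 Ia, 395 Ib, 314 Ic and 119 type II neurons, and CKO had 384, 216, 132 and 152 of these classes. In type II cells of control the markers Th, Plk5 and Ngfr reached 5.09, 4.63 and 8.95, while Etv4 (0.00682) and Smad3 (0) were at or near 0. The classes are ranges of marker level. In CKO, cells above the Calb2 line also held the Ib marker Calb1 at 1.90, against 0.283 in control, and Ic cells held the Ia marker B3gat1 at 1.04 against 0.0820. Between the Calb2 line and 1.25 times it lay 37 control and 72 CKO cells, and from 0.8 times the line up to it 26 and 61. Vsnl1 was 4.53 just above and 5.96 just below the line in control, and 4.56 and 4.94 in CKO. CKO stretch 4 was made up more like control, with 12.1% Ia and 35.7% Ic neurons, while Ia made up 47.0% of stretch 1 and 53.2% of stretch 3. Pooled glial markers, 8 of 8 measured, summed to at most 253 in any control and 756 in any CKO cell, and 61.2% of control and 55.7% of CKO cells had 5 or more glial UMIs per 10000. In 5 control and 8 CKO cells the glial markers summed higher than the 8 neuron markers, and these cells were kept and counted as neurons. Of the 2 hair cell markers measured the summed level never passed 1.55.

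Hpcal1 and Vsnl1 divided the neurons between them: Hpcal1 was the sensor RNA of type II neurons, and Vsnl1 that of type I neurons. Of all UMIs of the 6 genes, Hpcal1 gave 85.7% in control type II cells (exact interval 84.4 to 87.0), and Vsnl1 gave 2.81%. In control Ia, Ib and Ic cells Vsnl1 gave 72.8%, 81.2% and 83.7%. Ncs1 supplied most of the remainder, with 10.5% of the sensor UMIs in type II and 19.7% in Ia cells. The 6 levels added up to 9.59 in type II and 8.997 in type I control neurons, and the type I classes ran from 6.50 in Ia through 8.87 in Ib to 11.1 in Ic. In CKO the sum was 10.5 in type II and 7.38 in type I neurons.

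**Figure D1:**
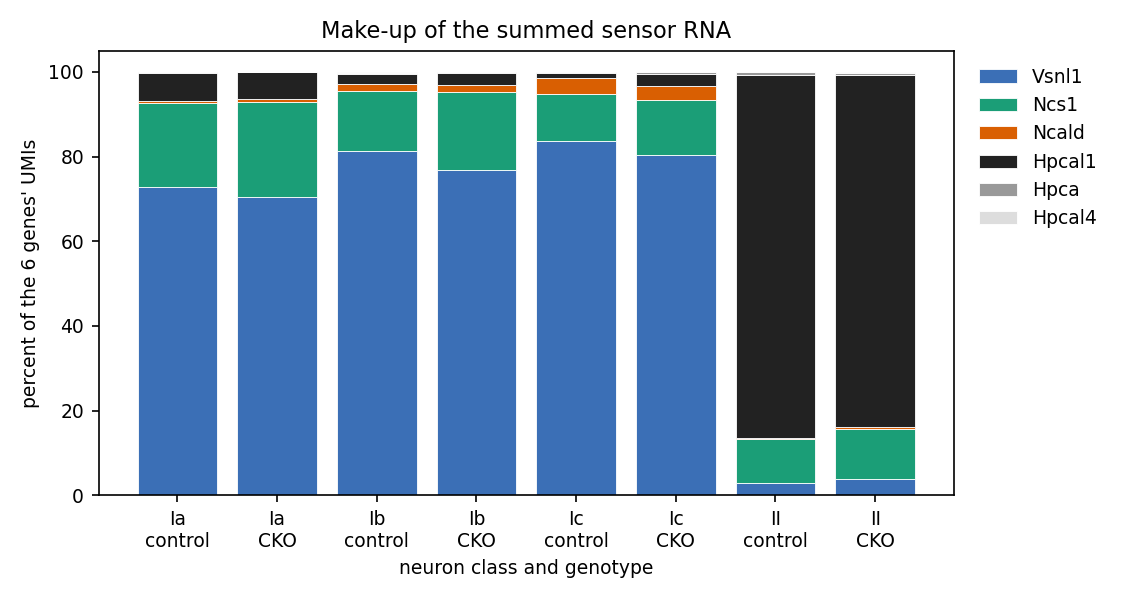
Share of the UMIs of the 6 sensor genes that came from each gene (percent, y axis), for each neuron class in control and CKO (x axis). Vsnl1 fills most of each type I bar and Hpcal1 most of each type II bar, 85.7% in control.

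Hpcal1 encodes hippocalcin-like protein 1, also called VILIP-3, and lies on chromosome 12 (GRCm38, 17690856 to 17791933, plus strand). In type II neurons its level was 8.08 in control stretch 2 and 8.47 in control stretch 5, and 8.63, 9.36 and 7.48 in CKO stretches 1, 3 and 4. The genotypes overlapped, and no stretch of any type I class came above 0.505. The control type II mean of 8.23 stood against 0.255 in type I neurons, and the ratio of the UMI rates was 31.0 (exact interval 28.8 to 33.4, from 2506 and 997 UMIs). In CKO the means were 8.80 and 0.329, with a ratio of 25.6 (23.96 to 27.4). On the log2 scale with 0.1 added to both levels, the differences were 4.55 and 4.37. Hpcal1 ranked 14th from the highest of 7317 genes compared in control and 18th of 7197 in CKO.

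Differences between type II and type I neurons were common in this matrix. A gene counted as apart at 1.5-fold or more, and entered where its level was at least 0.2 in either pool. By that rule 38.9% of genes were apart in control and 39.0% in CKO. Among the sensors, 4 entered in control and 3 were apart: Hpcal1 higher, Vsnl1 and Ncald lower. In CKO 3 entered and 2 were apart, Hpcal1 and Vsnl1. A count of this size says little beside such a background, and the sizes and ranks of the 2 leading genes carry the description.

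Single cells showed the same division. Hpcal1 was detected in 119 of 119 control and 152 of 152 CKO type II neurons, with a range of 0.892 to 16.6 and a median of 7.95 in control, and of 0.653 to 20.4 and 8.57 in CKO. Its level exceeded that of Vsnl1 in 119 of 119 control type II neurons and in 150 of 152 in CKO. Among control type I neurons it did so in 0 of 242 Ia, 4 of 395 Ib and 0 of 314 Ic cells. For the zero counts, 3 cells would be 1.24% of Ia and 0.955% of Ic, and the exact upper bounds are 1.51% and 1.17%. In CKO the counts were 1 of 384, 2 of 216 and 0 of 132. Cells with both genes at 2 or more numbered 0 in control and 5 in CKO, of which 2 were of type II.

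A few cells just outside the Dupd1 line had a high Hpcal1 level. No control cell lay from the line to 1.25 times it, and the 1 cell from 0.8 times the line up to it had 13.6 for Hpcal1 and 0.470 for Vsnl1. The 2 control cells with Dupd1 at 0.5 to 1 had Hpcal1 at 7.52 and 13.6, and the 2 such CKO cells had 0 for it. The control Ib class had a Hpcal1 mean of 0.236 and a median of 0.

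**Figure D2:**
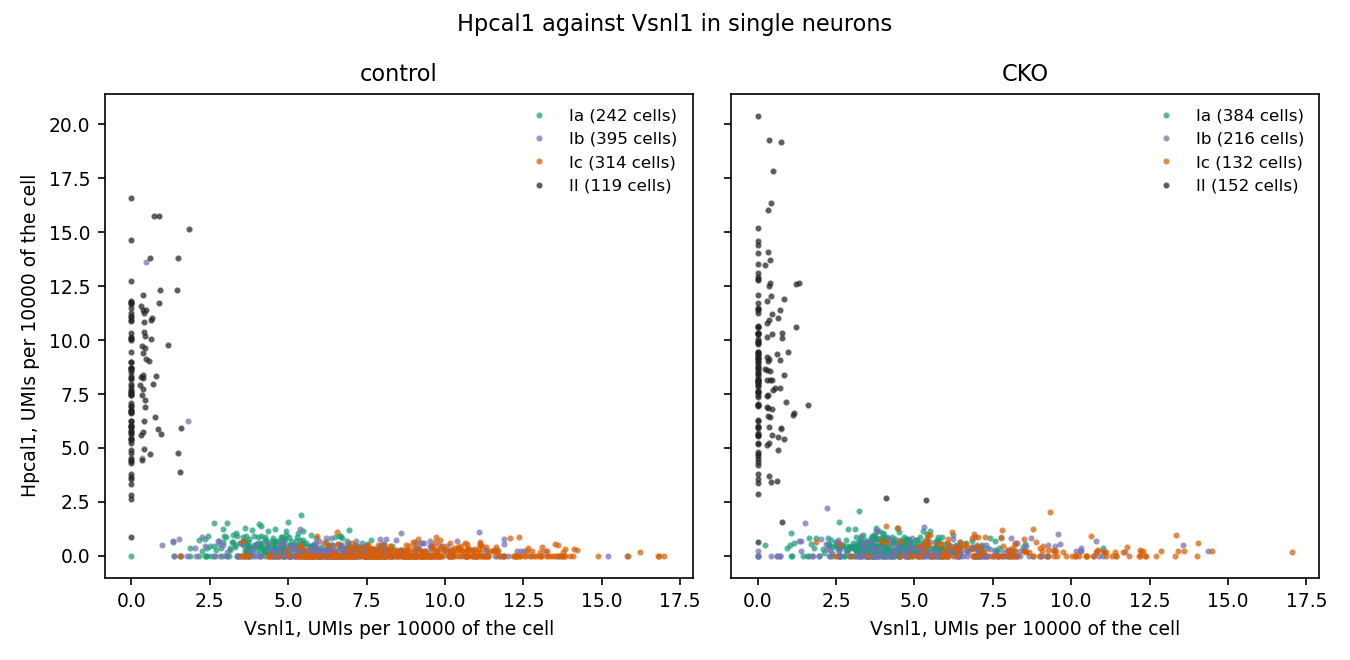
Hpcal1 (y axis) against Vsnl1 (x axis), both in UMIs per 10000 UMIs of the cell, with each point 1 neuron coloured by class, for control on the left and CKO on the right. Type II neurons lie along the Hpcal1 axis with medians of 7.95 and 8.57, type I neurons lie along the Vsnl1 axis, and few cells hold both.

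Within type I neurons Hpcal1 was low and uneven. In control it was 0.436 in Ia, 0.236 in Ib and 0.138 in Ic cells. The Ib mean includes 4 cells with Hpcal1 at 2 or more, among them those near the Dupd1 line, and Ia and Ic had 0 such cells. Ib means were 0.321 and 0.170 in control stretches 2 and 5, and the median was 0 in both Ib and Ic. Ia stood above the other type I classes by a log2 of 0.87, where 4.38% of genes were apart, and Ic below them by 0.79 (log2 -0.79), where 3.72% were. After thinning every cell to 10000 UMIs, Hpcal1 was seen in 30.6% of Ia, 13.9% of Ib and 12.7% of Ic control neurons. Unthinned shares were 81.0%, 42.3% and 37.6%, at median depths of 48726, 37312 and 37895.5 UMIs. In control Ia, Ib and Ic cells Hpcal1 was at 5.29%, 2.87% and 1.68% of its type II level, and in CKO at 4.36%, 2.79% and 3.51%. Over the same 6 groups 2 other type II genes, chosen after their values were seen, were at 0% to 1.014% (Necab1) and 0.0733% to 6.07% (Syt1) of theirs. Syt1 was above Hpcal1 in CKO Ib cells and below it in the other 5 groups. The part of free RNA in droplets in these low levels was not tested.

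In CKO the Hpcal1 level was 0.383 in Ia, 0.245 in Ib and 0.309 in Ic cells. Stretch 4 differed from this, with 0.505, 0.0861 and 0.117. Ia against the other type I classes differed by a log2 of 0.39, under the 1.5-fold line, beside 3.12% of genes apart. It was 0.88 without stretch 1, past the line, and 0.078 without stretch 4. Ia exceeded Ic in 4 of 5 stretches, and stretch 1 of CKO had the opposite order, 0.333 and 0.490.

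Vsnl1 encodes visinin-like protein 1, also called VILIP-1, and lies on chromosome 12 as well (11325242 to 11436613, minus strand). Its type II level was 0.201 and 0.356 in control stretches 2 and 5, and 0.235, 0.330 and 0.362 in CKO stretches 1, 3 and 4. Every one of these lay below every type I value, which began at 4.27 in Ia of stretch 3. Control type II and type I means were 0.262 and 7.21, with a UMI rate ratio of 0.0371 (0.0295 to 0.0461) and a log2 difference of -4.33, the 7th lowest of 7317 genes. In CKO the ratio was 0.0699 (0.0595 to 0.0816) and the log2 difference -3.80, the 17th lowest of 7197. In CKO 2 type II cells had Vsnl1 at 2 or more, the highest at 5.36, and control had none.

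A Vsnl1 UMI was seen in 39.5% of control and 43.4% of CKO type II neurons, and in 21.8% and 21.7% after thinning. Thinned shares in type I neurons ran from 97.4% in CKO Ia to 100% in Ic cells of both genotypes. The Vsnl1 level in type II was 3.64% of that in type I cells in control and 5.46% in CKO. Other genes of type I neurons, chosen after their values were seen, were at 0.557% and 0.531% (Syt2), 0.302% and 2.53% (Kcnip1) and 0.725% and 2.57% (Calb1) in control and CKO. The part of free RNA in the type II values was not tested.

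Among type I neurons Vsnl1 increased from Ia through Ib to Ic. In Ia cells its level was 4.79 and 4.67 in control stretches 2 and 5, and 4.36, 4.27 and 4.69 in CKO stretches 1, 3 and 4. Ib cells had 7.40 and 6.97 in control, and 4.62, 5.54 and 7.64 in CKO. Ic cells had 8.57 and 10.1 in control, and 6.51, 7.64 and 10.1 in CKO. The order Ia, Ib, Ic held in 5 of 5 stretches, and CKO stretch 4 lay near the control values. Ia against the other type I classes differed by a log2 of -0.77 in control and -0.62 in CKO, both past the line. The CKO value was -0.39 without stretch 4, -0.55 in glia-poor cells, -0.55 at a Calb2 line of 200 and -0.58 with a pseudocount of 0.5, all under it. Ic against the others differed by 0.56 in control, just under it, and 0.76 in CKO, where 3.79% of genes were apart. No sensor was apart between Ib and the other type I classes, beside 0.878% of genes in control and 0.719% in CKO.

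Over Calb2 level, a continuous measure of the Ia to Ic axis, Vsnl1 moved stepwise. In control type I neurons it was 9.30 at a Calb2 level under 10, 8.14 from 10 to 50, 6.999 from 50 to 100, 6.11 from 100 to 150, 4.57 from 150 to 200 and 4.73 above. CKO neurons had 8.67, 7.40, 6.11, 5.08, 4.59 and 4.23 in the same bins. The level was lower in each bin than in the one before it, save the last in control, and up to a Calb2 level of 150 the CKO value was the lower of the pair. Bins held 51 to 270 control and 79 to 279 CKO cells and were not split by stretch. Calb2 also sets the Ia line, so the bins partly repeat the comparison of classes and are not a separate result.

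**Figure D3:**
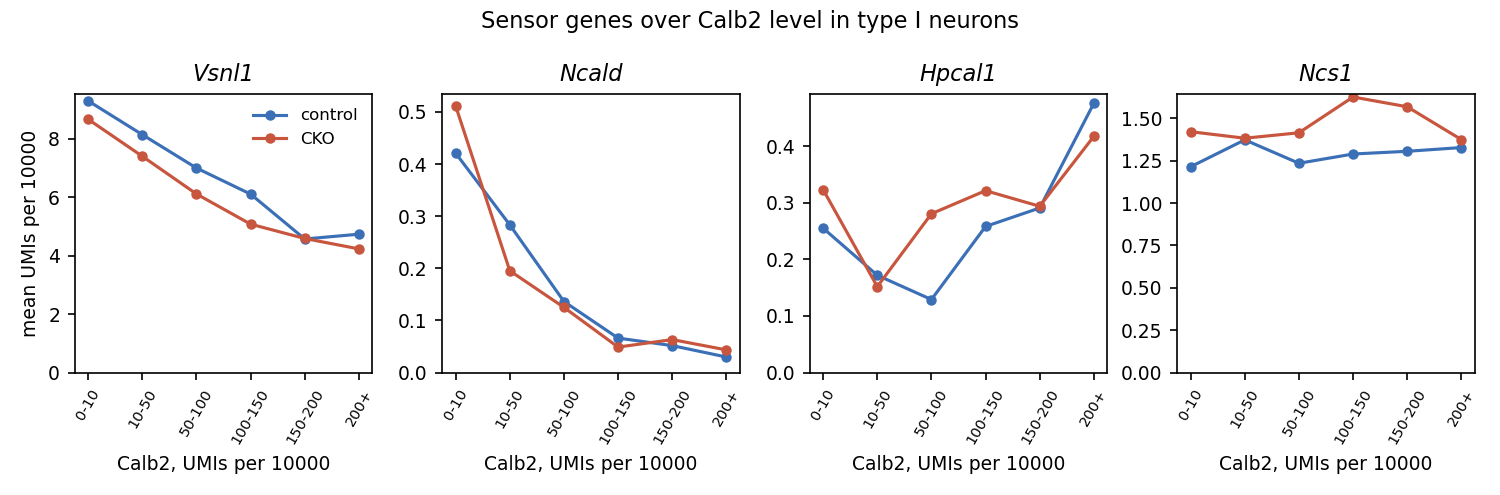
Mean level (UMIs per 10000, y axis) of Vsnl1, Ncald, Hpcal1 and Ncs1 in type I neurons binned by Calb2 level (UMIs per 10000, x axis), control in blue and CKO in red. Vsnl1 goes from 9.30 to 4.73 and Ncald from 0.421 to 0.0298 across the control bins, while Ncs1 stays between 1.21 and 1.37.

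The bases upstream of Hpcal1 and Vsnl1 are shown because these 2 genes had opposite levels in the 2 kinds of neuron. They come from RefSeq (GRCm38.p6), 5′ to 3′ on the strand of the gene, and capitals mark GGGCGG or its reverse complement CCGCCC, a core of the sequence bound by Sp1. Bases that the annotated gene covers are left off.
Hpcal1, chr12:17690559-17690808, plus strand: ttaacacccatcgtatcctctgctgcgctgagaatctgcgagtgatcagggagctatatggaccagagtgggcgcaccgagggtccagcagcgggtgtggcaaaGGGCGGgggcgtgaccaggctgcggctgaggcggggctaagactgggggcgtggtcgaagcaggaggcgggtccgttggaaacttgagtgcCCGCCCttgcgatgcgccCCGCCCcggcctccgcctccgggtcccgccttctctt
Vsnl1, chr12:11436614-11436828, minus strand: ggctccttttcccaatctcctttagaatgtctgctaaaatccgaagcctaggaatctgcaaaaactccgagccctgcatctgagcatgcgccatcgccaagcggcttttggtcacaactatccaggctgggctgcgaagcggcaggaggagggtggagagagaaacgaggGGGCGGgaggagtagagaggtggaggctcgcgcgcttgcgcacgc
In the 250 bases before its RefSeq start, Hpcal1 held GGGCGG on either strand 3 times at 66.8% G and C. Vsnl1 has 2 RefSeq starts: the window shown, at full length, held the string once at 58% G and C, and that of the other start held it 0 times at 41.6%. TGTGGT, a core letter string of RUNX sites, occurred in none of these 3 windows on either strand. Of 32851 such windows, 32.7% held GGGCGG and 14.0% held TGTGGT, and with no TGTGGT present the 2 strings could not overlap here. These matches describe letters only.

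Ncald encodes neurocalcin delta and lies on chromosome 15 (37366175 to 37792570, minus strand), where several other annotated genes overlap it. It followed the same axis as Vsnl1 at a far lower level. In Ic cells it was 0.423 and 0.425 in control stretches 2 and 5, and 0.249, 0.254 and 0.517 in CKO stretches 1, 3 and 4. Control means were 0.0345 in Ia, 0.154 in Ib, 0.424 in Ic and 0.0302 in type II neurons. CKO means were 0.0489, 0.114, 0.364 and 0.0480 in the same order. The order Ia, Ib, Ic held in 5 of 5 stretches.

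In control the UMI rate of Ncald in Ic was 12.5 times that in Ia (9.01 to 17.9, from 492 and 38 UMIs), and in CKO 7.62 times (5.92 to 9.87). Ic against the other type I classes gave a log2 of 1.33 in control, rank 19 of 6688 genes, and 1.43 in CKO, rank 16 of 6596. A Ncald UMI was seen in 32.5% of control Ic, 15.7% of Ib, 4.13% of Ia and 2.52% of type II neurons after thinning, and in 73.6%, 38.2%, 14.9% and 7.56% before it. Across the 15 pools of a type I class in a stretch, Ncald and Vsnl1 had a Pearson r of 0.947 on the log2 scale. These pools share libraries and depth. Within single type I classes the rank correlation over control cells was -0.0502 in Ia, 0.0998 in Ib and 0.0572 in 314 Ic cells. Over CKO cells it was -0.102 in Ia, 0.273 in Ib and 0.354 in 132 Ic cells.

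Ncs1, on chromosome 2 (31245823 to 31295989, plus strand), encodes neuronal calcium sensor 1, which binds phosphatidylinositol 4-kinase and acts on calcium channels. It was the sensor with the flattest profile. Control means were 1.32, 1.28, 1.29 and 1.001 in Ia, Ib, Ic and type II neurons, and CKO means 1.43, 1.501, 1.41 and 1.26. Across the type I classes the order of Ncs1 changed from stretch to stretch, so these neighbours did not differ beyond their spread. Type II lay below each type I class in 4 of 5 stretches, with a log2 difference of -0.34 in control and -0.19 in CKO. Ncs1 was seen in 97.4% of control neurons before thinning and 72.3% after.

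Hpca, the gene of hippocalcin, and Hpcal4 were close to the detection limit. Both lie on chromosome 4, Hpca at 129111570 to 129122036 on the minus strand and Hpcal4 at 123183227 to 123194701 on the plus strand. Hpca gave 77 UMIs in 1070 control and 52 in 884 CKO neurons, and Hpcal4 42 and 28. Hpca overlaps Tmem54 on the opposite strand. The Hpca level was highest in type II neurons, 0.0496 in control and 0.0669 in CKO, and lay above each type I class in 5 of 5 stretches. Control Ia neurons had 0.00319. The control type II value rests on 15 UMIs, and its rate interval, 0.0275 to 0.0809, lies above the type I interval, 0.0126 to 0.0211. Hpcal4 stayed at or below 0.0186 in every class of both genotypes, and no order of its classes could be read at this depth.

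**Figure D4:**
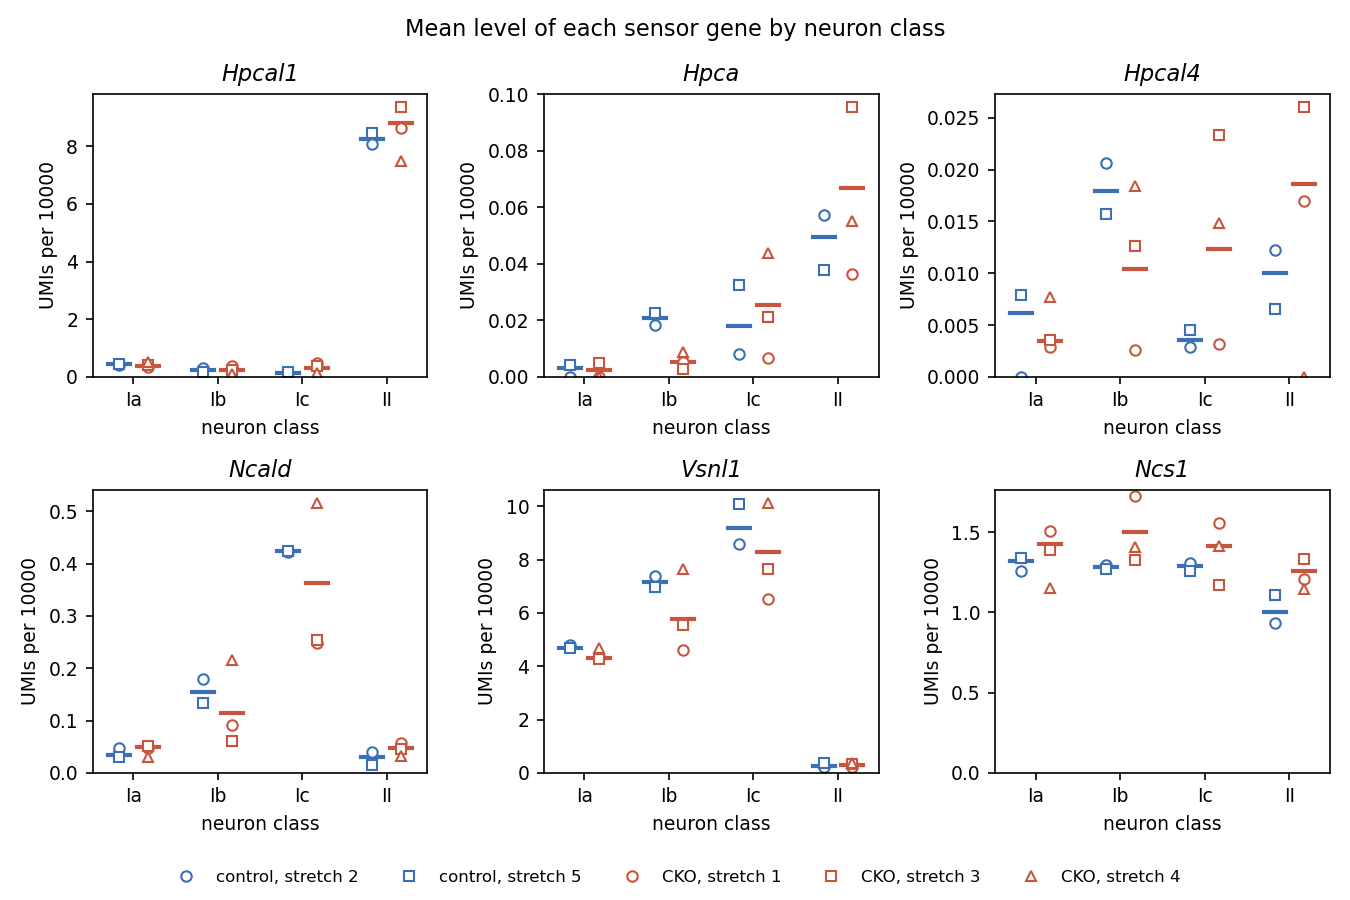
Mean level (UMIs per 10000, y axis, each panel with its own range from 0) of the 6 genes by neuron class (x axis), with control in blue and CKO in red. Bars are means of all cells of a genotype and symbols are stretches of columns, and the panels show Hpcal1 in type II near 8.23 and 8.80, Vsnl1 and Ncald increasing from Ia to Ic, and Ncs1 near level.

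Between genotypes, Hpcal1 was higher and Vsnl1 and Ncald lower in CKO when all neurons were pooled. Hpcal1 was 1.41 and 0.919 in control stretches 2 and 5, and 1.72, 2.08 and 1.23 in CKO stretches 1, 3 and 4, and the genotypes overlapped. The pooled means of 1.14 and 1.79 gave a log2 difference of 0.60 and a UMI rate ratio of 1.47 (1.41 to 1.54). This put Hpcal1 past the 1.5-fold line and 24th from the highest of 6678 genes, of which 0.898% were apart and 0.389% were apart with the higher level in CKO. It was the only one of the 3 sensors entered that passed the line.

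The share of type II neurons moved with this result. Type II made up 11.1% of control and 17.2% of CKO neurons, and supplied 80.2% and 84.7% of the pooled Hpcal1 level. By stretch this share was 14.9% and 7.99% in control, and 16.3%, 19.1% and 14.6% in CKO stretches 1, 3 and 4, so the genotypes overlapped. With CKO class levels weighted by the control class shares, the log2 difference was 0.12. With control class levels weighted by the CKO shares it was 0.52. Within type II neurons the log2 difference was 0.09, and in type I neurons together it was 0.28. Sorting and dissociation can set class shares, and each genotype is 1 pool, so a change in the ganglion cannot be told apart from a difference in recovery. The thinned share of neurons with a Hpcal1 UMI was 26.9% in control and 39.9% in CKO, and the unthinned share 56.1% and 73.8%. In cells with under 5 glial UMIs per 10000 the log2 difference was 0.49, under the line.

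Vsnl1 in all neurons was 6.49 and 6.39 in control stretches 2 and 5, and 4.04, 4.03 and 7.11 in CKO stretches 1, 3 and 4. The first 2 CKO values lay below control, and stretch 4 lay above it. Pooled means were 6.44 and 4.58, with a log2 difference of -0.48 and a rate ratio of 0.745 (0.732 to 0.759). Without stretch 4 the difference was -0.66, past the line. At control class shares it was -0.20, and with control levels at CKO shares -0.30, so neither the shares nor the levels alone gave the whole value.

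Ncald was 0.238 and 0.155 in the control stretches and 0.0860, 0.0678 and 0.274 in CKO stretches 1, 3 and 4. Its pooled levels of 0.192 and 0.112 lay under the minimum of 0.2, so it did not enter. The log2 difference was -0.47, or -0.14 at control class shares. Hpca (0.0192 and 0.0177) and Hpcal4 (0.0102 and 0.00909) did not enter either, and over all neurons their rate intervals included no difference. In Ib cells the Hpca level was 0.0183 and 0.0225 in control stretches 2 and 5, and 0.00514, 0.00274 and 0.00876 in CKO stretches 1, 3 and 4. The rate ratio there was 0.261 (0.0796 to 0.674), from only 5 CKO and 33 control UMIs. Over all neurons the stretches of the genotypes lay wholly apart for 19.0% of the 6678 genes that entered. Hpca did not enter and no such share is given for Ib, so this is no direct background for the Ib values. In type I neurons together the Hpca rate ratio was 0.474 (0.288 to 0.761). By stretch its type I level was 0.0114 and 0.0184 in control, and 0.00250, 0.00595 and 0.0222 in CKO, so the genotypes overlapped. The part of class shares in the type I ratio was not tested.

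Within classes most genotype differences were small. No sensor passed the 1.5-fold line in Ia, Ib or type II, where 0.549%, 1.12% and 0.947% of genes did. Hpcal1 in Ic was the one value past it, beside 1.34% of genes in that class. It was 0.125 and 0.157 in control stretches 2 and 5, and 0.490, 0.380 and 0.117 in CKO stretches 1, 3 and 4. Stretches 1 and 3 lay above control and stretch 4 below it. The pooled means of 0.138 and 0.309 gave a log2 difference of 0.78 and a rate ratio of 2.13 (1.72 to 2.64, from 173 and 182 UMIs). The thinned share with a UMI was 12.7% in control and 26.5% in CKO. Without stretch 1 the log2 difference was 0.35, under the line.

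The Ic cells of stretches 1 and 3 also held more Calb2, with medians of 33.04 and 36.9, against 5.93 and 2.10 in control stretches 2 and 5 and 0.646 in CKO stretch 4. In CKO Ic cells with a Calb2 level of 50 or more, Hpcal1 was 0.537 in 29 cells, and in those below 50 it was 0.244 in 103 cells. Control Ic had 0.235 in 7 and 0.136 in 307 such cells. The split at 50 was chosen after seeing the data, and its part in the result was not tested.

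The pooled Ncs1 level was higher in CKO in each of the 4 classes. The log2 differences were 0.10, 0.21, 0.13 and 0.30 in Ia, Ib, Ic and type II, none of them past the line. In Ia and Ic the stretches of the genotypes overlapped. CKO stretch 4 had 1.15 in Ia, against 1.26 and 1.34 in control, and CKO stretch 3 had 1.17 in Ic, against 1.31 and 1.26. Over all neurons Ncs1 was 1.24 and 1.28 in the control stretches and 1.52, 1.35 and 1.34 in the CKO stretches, which did not overlap. Stretches of the genotypes lay wholly apart for 19.0% of the 6678 genes, and with CKO above for 5.77%, so a gap of this kind was common. The pooled log2 difference was 0.15, beside the higher median depth of CKO cells given above. After every cell was thinned to the same depth, the mean Ncs1 level was 1.23 in control and 1.39 in CKO neurons. The thinned share of neurons with a Ncs1 UMI was 72.3% in control and 72.3% in CKO. Beyond these values the part of depth in the difference was not tested.

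Vsnl1 within classes differed by -0.12 in Ia, -0.31 in Ib, -0.15 in Ic and 0.14 in type II. In Ib, CKO stretches 1 and 3 (4.62 and 5.54) lay below control (7.40 and 6.97) and stretch 4 (7.64) above. Ib neurons of CKO also held more Calb2, with a median of 85.1 against 54.1 in control. In Hpcal1 the log2 differences were -0.15 in Ia and 0.04 in Ib. The Ib value became 0.37 when type I neurons with any Dupd1 UMI were left out, an alternative chosen after seeing the data.

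**Figure D5:**
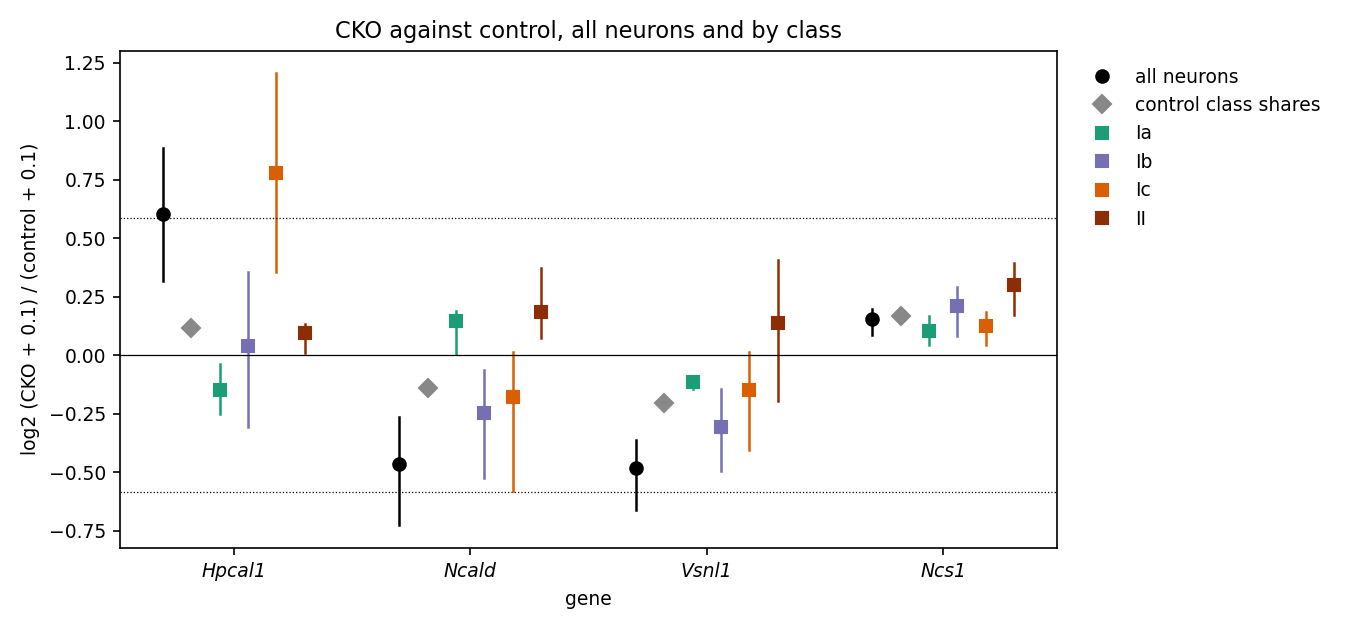
Log2 of CKO over control, with 0.1 added to both levels (y axis), for 4 sensor genes (x axis), in all neurons, with CKO levels at control class shares, and in each class. Dotted lines mark 1.5-fold, and a vertical line gives the range of values when 1 stretch is omitted. Hpcal1 goes from 0.60 in all neurons to 0.12 at control class shares.

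Of the other genes of the calcium sensor family, 6 of 7 were measured. These are the potassium channel interacting proteins Kcnip1 to Kcnip4, which bind Kv4 channels, and the guanylyl cyclase activators Guca1a and Guca1b, which were near 0. Of 3 that entered between type II and type I control neurons, 3 were lower in type II, beside 38.9% of all genes apart (median log2 -2.51, against 0.02 over all 7317 genes). Kcnip1 was at 0.00261 in type II and 0.866 in type I. Inside type I, Kcnip1, Kcnip2 and Kcnip3 were lower in Ia, as Vsnl1 and Ncald were, and Kcnip4 was higher in Ia (log2 0.85), as Hpcal1 was. Kcnip2 was the 1 gene of all 4 lists past the line between genotypes. Over all neurons 3 of the 6 family genes measured entered. Kcnip2 was there at 0.504 in control and 0.229 in CKO (log2 -0.88, beside 0.898% of genes). In type I neurons it was at 0.565 and 0.276 (log2 -0.82, beside 1.05% of genes). In no single class was it past the line, with 0.649 and 0.432 in Ib. Its control level was 0.113 in Ia and 0.808 in Ic. Ia made up 22.6% of control and 43.4% of CKO neurons. The part of class shares in the Kcnip2 difference was not tested.

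Of 16 calmodulin-like sensors and synaptotagmins listed, 12 were measured and 8 entered between type II and type I control neurons. In type II neurons 5 of them were lower and 2, Necab1 and Syt1, were higher, beside 38.9% of all genes apart in that comparison. Syt1 and Syt2, calcium sensors of vesicle release, were split like Hpcal1 and Vsnl1: Syt1 stood at 1.03 in type II and 0.0101 in type I, and Syt2 at 0.0150 and 2.70. Between genotypes over all neurons 0 of 7 that entered were past the line, beside 0.898% of all genes.

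Of 23 partners described for the sensors, 20 were measured and 13 entered between type II and type I control neurons, with 3 lower and 1 higher in type II, beside 38.9% of all genes apart. The lower ones were Pi4ka, a phosphatidylinositol 4-kinase, Chrnb2, a nicotinic receptor subunit, and Ap2b1, a clathrin adaptor subunit, and the higher one was Adcy2, an adenylyl cyclase. Ppp3ca, a catalytic subunit of calcineurin, was ordered like Ncald and Vsnl1 along the type I axis, at 1.04 in control Ia and 2.31 in Ic. Gnas was the most abundant partner, at 32.4 in control and 32.95 in CKO. The N-myristoylation genes Nmt1, Nmt2, Metap1 and Metap2, which remove the start methionine or add the lipid to the glycine, were all measured. Of the 3 that entered, 0 were apart between types in control, beside 38.9% of all genes. Between genotypes over all neurons 0 of 3 were apart, beside 0.898% of all genes. Counts over 3 genes say little beside such shares.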

How the data were processed

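RNA of sorted cochlear neurons was counted with 10x Genomics 3′ v3 chemistry, as the labels' protocols state. Cell Ranger, Seurat and mm10 are named in the submitters' processing notes, with no version. The deposited matrix is in natural log units, ln(1 + 100000 × UMI / cell total), a form settled from its values, together with a genotype for each cell. Whole UMI counts were recovered for 100% of values above 0 within 0.01, and cells held 10379 to 100856 UMIs. How cells were chosen and doublets treated is not given in the sources used here, and no doublet caller was run. A test over samples had been planned for the case that cells could be tied to samples. They could not be.

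The 6 genes, the marker lists and the gene lists were chosen with earlier results of these data known. Levels are mean UMIs per 10000, log2 differences add 0.1 to both levels, and a gene counted as apart at 1.5-fold where either level was at least 0.2. Shares were also taken after thinning to 10000 UMIs. Beside the 6 genes, the text names the 3 genes with the highest Pearson r to each of them over pools of stretch and class, at a mean of 0.5 or more, and from each list those apart between genotypes and the most abundant 4; others were named after their values were seen, and some that the rule would name are not reported here. Rate ratios and intervals are exact at 95% (Poisson, and Clopper-Pearson for shares). Alternatives were other levels, pseudocounts, thinning, class lines, glia-poor cells, class weights and leaving out each stretch. Python 3.11.15, numpy 2.4.6, pandas 2.3.3, scipy 1.17.1, Biopython 1.88 and matplotlib 3.10.9 were used. Gene positions are from GENCODE M21, on the same build as mm10.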

Additional observations from a re-analysis of the deposited data

How the results depend on the processing

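Over the 16 class and genotype differences past the 1.5-fold line, 269 alternative values kept their direction in 269 cases and stayed past the line in 251, and 8 of the 16 stayed past it in every alternative run. Among these 8 were Hpcal1 and Vsnl1 between type II and type I neurons. Part of these counts was fixed in advance. Leaving out a CKO stretch cannot move a comparison within control, nor a control stretch a comparison within CKO. A pseudocount cannot change a direction, and lifting the minimum level leaves a value past the line as it was. A pseudocount of 0.5 ended both type I differences of Hpcal1 in control, the Hpcal1 difference in Ic between genotypes, the lower Ncald of Ia in both genotypes and of control type II, and the lower Vsnl1 of CKO Ia. That last difference was also under the line in glia-poor cells, at a Calb2 line of 200 and without stretch 4. The Hpcal1 log2 difference between genotypes over all neurons (0.60) was 0.51 from summed UMIs, 0.48 with a pseudocount of 0.5, 0.49 in glia-poor cells, 0.28 in type I neurons and 0.12 at control class shares. That of Vsnl1 was -0.42 from summed UMIs, -0.45 with a pseudocount of 0.5, -0.45 after thinning, -0.53 in glia-poor cells, -0.39 in type I neurons and -0.20 at control class shares. That of Ncald was -0.73 and -0.18 with pseudocounts of 0.01 and 0.5, -0.70 in glia-poor cells and -0.14 at control class shares. Leaving out 1 stretch at a time, Hpcal1 ranged from 0.32 (without stretch 5) to 0.89 (without stretch 2) and was 0.43 without stretch 3, Vsnl1 from -0.66 (without 4) to -0.36 (without 3), Ncald from -0.73 (without 4) to -0.26 (without 3), and Ncs1 from 0.087 to 0.20. The number of the 6 genes apart, 1 over all neurons, was 0 from summed UMIs, with a pseudocount of 0.5, in glia-poor cells, in type I neurons and at control class shares, and 0 (without stretch 3) to 2 (without stretch 4) with a stretch left out. The cause of these moves was not tested, except that fewer or reweighted cells and a larger pseudocount act by construction. The alternative without type I neurons that hold a Dupd1 UMI was chosen after seeing the data, and under it Hpcal1 over all neurons was 0.64. No paired analysis was possible because the cells carry no sample or replicate number. Depth limits Hpca and Hpcal4, which stayed under the minimum level in every class.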

Other observations

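The genes whose level ran most like each sensor were taken over 20 pools, 4 classes in 5 stretches, that share libraries and depth. With Hpcal1 went Eef1a1, a translation elongation factor (Pearson r 0.988, 37.6 in control type II and 8.01 in Ia neurons), Tmem38a, an intracellular cation channel (0.983), and Lin7a, a scaffold protein (0.978). With Vsnl1 went the kinase Aak1 (0.989) and the NMDA receptor subunit Grin1 (0.988, 2.94 in control Ic and 0.317 in type II neurons). Vsnl1 and Hpcal1 had an r of -0.983 over these pools, which span both kinds of neuron. Over the 15 type I pools their r was -0.73. Within classes their rank correlation over control cells was -0.0248 in Ia, -0.0692 in Ib, 0.0984 in Ic and 0.248 in type II. Over CKO cells it was -0.0181, -0.0388, -0.250 and -0.00361 in the same order. With Ncald went the splicing factor Rbfox3 (0.902), Ostf1 (0.899) and Dnm3, a dynamin (0.869). Rbfox3, which encodes the antigen NeuN, stood at 0.149 in control Ia, 0.893 in Ib, 2.12 in Ic and 0.0270 in type II neurons, an order like that of Ncald. With Ncs1 went Rap2a (0.861), Dnajb14 (0.856) and the kinesin Kif2a (0.814), each higher in CKO than in control in each of the 4 classes, and Kif2a stood at 1.55 in control and 2.70 in CKO Ib neurons. Hpca and Hpcal4 were too low for such a ranking to carry weight, with Csrp1 (0.888) and Slc39a7 (0.703) first.

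Over the 15 pools of type I neurons alone the genes ranked first were others. They were Tmem229b for Hpcal1 (0.854), Camk2g for Ncald (0.938), Enah for Vsnl1 (0.967) and Ostc for Ncs1 (0.862). Rph3a, a synaptic vesicle protein and second for Ncald in type I neurons (0.934), was at 1.73 in control Ic and 0.134 in Ia, yet at 20.3 in type II neurons, where Ncald was at 0.0302.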
